A study of Mus musculus with 15 samples.

Results

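Interferon-stimulated genes are the genes that cells switch on when interferons reach them. The 42 genes described here were chosen by name, as the array features whose gene name in the scanner files is on a fixed list of members, and they are read by 75 of the 56605 probes and are 42 of the 37074 gene names on the array. RNA of 15 mouse samples was read on Agilent arrays with 1 colour. The study asked how pancreatic stellate cells (PSC) of both genotypes differ and how their conditioned medium affects pancreatic cancer cells. PSC resemble fibroblasts, lie around the acini of the pancreas and turn into matrix-producing cells in culture.

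The samples formed 5 groups of 3 arrays. PSC HT were stellate cells from heterozygous mice and PSC WT were stellate cells from wild-type mice, both kept 2 weeks in culture until activated. Mouse neoplastic pancreatic cells were held for 24 h in HT PSC medium, in WT PSC medium or in control medium. The labels used here name neither the heterozygous locus nor the cancer cell line, and give no age or strain of the mice. Nor do they say whether the 3 replicates of a group are separate animals or cultures. A p-value therefore describes the spread among these arrays, and that spread may be technical.

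Type I interferons bind the receptor made of IFNAR1 and IFNAR2, type II interferon binds the receptor made of IFNGR1 and IFNGR2, and both signal through JAK kinases to STAT transcription factors. STAT2 and IRF9 act in a complex that binds the interferon-stimulated response element (ISRE) in promoters, while the type II response also runs through the gamma-activated sequence (GAS). The products restrict viruses, present antigen or feed back on the pathway. Many cells also keep a basal level of these transcripts without infection.

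Values are log2 signals relative to the 75th percentile of each array, called levels below. A difference is the first-named group minus the other, in log2 units, ± SE of the limma fit with 3 arrays per group. A difference passed at a Benjamini-Hochberg adjusted p of 0.05 over all genes tested. Levels of different genes come from different probes and are not set against each other. The 75th percentile was 913 to 1449 in signal units over the 15 arrays, and the share of spots well above background was 54.3% to 63.8%. Array 3 of PSC HT stood apart, with the lowest of these shares and the highest detection floor, at a level of -4.73 against -6.01 to -5.28 on the other arrays. Its summed signal of 9 epithelial markers was 21.5 times its 75th percentile, against 5.92 and 6.83 on the other PSC HT arrays and 13.3 to 14.3 on the PSC WT arrays. The spike-in slope, a fit of the added control RNAs in the file headers, was 0.896 to 0.927 on array 2 of PSC HT and the 3 PSC WT arrays. It was 1.05 to 1.06 on the other 11 arrays.

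The labelled cell types were checked against marker lists. All 10 stellate cell and fibroblast markers were detected in PSC and were higher in PSC WT than in cancer cells in control medium. Of all genes tested 36.1% were higher. Of the 10, 7 were read in full in only 1 of these groups and had to differ. The 3 read on every array were all higher, against 32.1% of such genes. All 9 epithelial markers were lower in PSC WT than in cancer cells, against 35.3% of all genes tested. Of the 9, 4 were read in full in only 1 group, and the 5 read on every array were all lower, against 37.9% of such genes. PSC of both genotypes also carried macrophage transcripts, described with the genotype comparison below.

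Of the 42 genes, 40 were well above background on all 3 PSC HT arrays and 38 on all 3 PSC WT arrays. In cancer cells 25 were so in each of HT PSC medium, WT PSC medium and control medium. Oas3, an oligoadenylate synthetase, and Mx1, a dynamin-like GTPase that blocks influenza viruses, were not measured on all arrays of any group and entered no test. In the heat map the members are largely bright in PSC and dark in cancer cells.

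**Figure D1:**
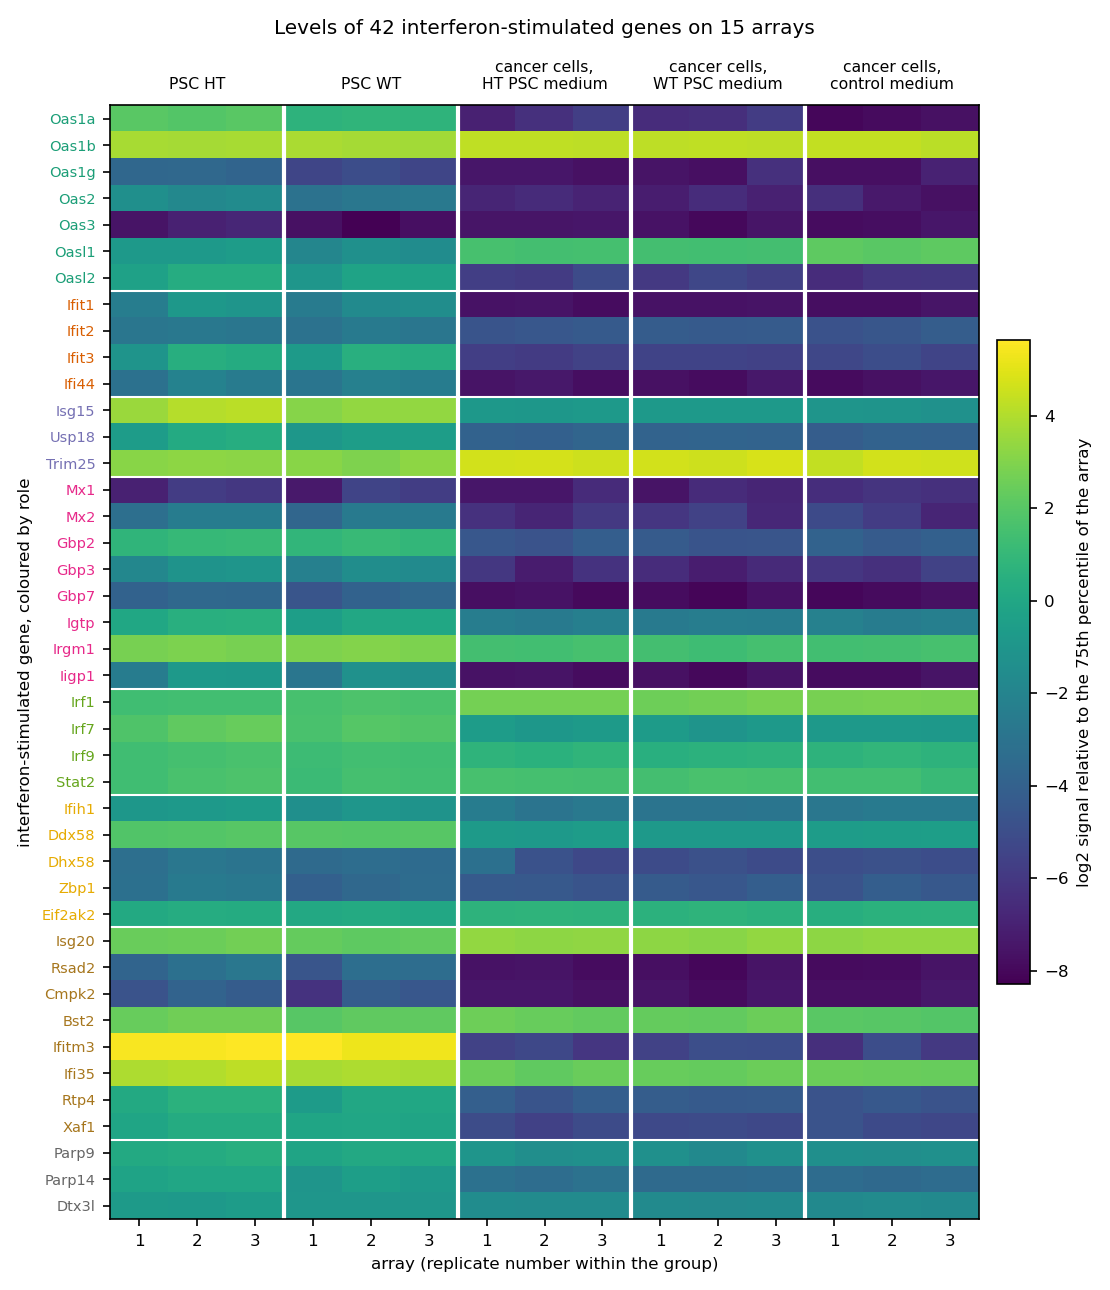
Level of each of 42 interferon-stimulated genes (rows, grouped and coloured by role) on 15 arrays (columns, in 5 groups of 3), with colour giving the log2 signal relative to the 75th percentile of the array. Colours are to be compared along a row, since rows come from different probes. Most rows are brighter on the 6 PSC arrays, while Oasl1, Trim25, Irf1 and Isg20 are brighter on the 9 cancer cell arrays.

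In PSC HT against PSC WT the genes that rose were members of the OAS family and Parp14. Of 40 members tested 5 were higher in PSC HT, where 2.95% of all 20906 genes tested were higher, and 0 were lower, where 4.77% of all genes were lower. Oas1g and Cmpk2 entered the test only through PSC HT, and of the 38 members well above background on all 6 PSC arrays 4 were higher. The share of all such genes that were higher was not computed, so the 4 have no share beside them. At an unadjusted p of 0.05, 17 of the 40 passed in limma. The share of all genes at that threshold was not computed, so nothing is read from this count. The median difference of the members was 0.32, against -0.0028 over all genes tested, and 34 of the 40 differences were positive. The genotypes did not overlap for 15 members higher in PSC HT and for Irf1 and Irgm1, the 2 lower ones, where the groups of all genes did not overlap for 14.1% higher and 15% lower.

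The OAS proteins sense double-stranded RNA. OAS1 and OAS2 enzymes then make short oligoadenylates that activate RNase L, which cuts RNA. In the mouse, Oas1 is a cluster of several copies. The used probes of Oas1a, Oas1b, Oas1g, Oas2 and Oas3 lie within 166.5 kb of chromosome 5 (build mm9), and those of Oasl1 and Oasl2 within 25.8 kb elsewhere on that chromosome.

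The bases before the starts of Oas1a and Oas1g are shown because both are near copies that rose, beside Oasl1, which rose without the same letters. Isg15 and Bst2 follow for the comparisons below. Each line is the 150 bases before the annotated start in RefSeq for build GRCm38.p6, and capitals mark matches to the ISRE letters, which are GAAA, any 2 bases and GAAA again. Adjacent matches share 4 bases and print as 1 run.
Oas1a: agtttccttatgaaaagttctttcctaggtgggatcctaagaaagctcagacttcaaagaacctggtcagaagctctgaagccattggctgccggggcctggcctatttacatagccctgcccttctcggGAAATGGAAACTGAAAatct
Oas1g: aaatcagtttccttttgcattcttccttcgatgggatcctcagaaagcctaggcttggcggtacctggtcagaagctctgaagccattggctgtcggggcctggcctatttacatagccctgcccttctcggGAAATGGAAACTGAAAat
Oasl1: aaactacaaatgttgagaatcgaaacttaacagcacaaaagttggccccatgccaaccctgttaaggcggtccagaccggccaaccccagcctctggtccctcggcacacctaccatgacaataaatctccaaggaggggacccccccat
Isg15: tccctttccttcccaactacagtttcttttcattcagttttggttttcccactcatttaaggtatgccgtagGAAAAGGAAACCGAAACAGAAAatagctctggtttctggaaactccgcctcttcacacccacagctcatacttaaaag
Bst2: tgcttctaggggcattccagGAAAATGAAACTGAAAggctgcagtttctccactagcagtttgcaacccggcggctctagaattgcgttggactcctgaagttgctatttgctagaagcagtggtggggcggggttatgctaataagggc

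The Oas1a stretch is chr5:120907526-120907675, minus strand, and the Oas1g stretch is chr5:120887614-120887763, minus strand. The other stretches are Oasl1 at chr5:114923090-114923239 (plus strand), Isg15 at chr4:156200819-156200968 (minus strand) and Bst2 at chr8:71537473-71537622 (minus strand). The 150 bases of Oas1a and Oas1g differed by an edit distance of 26, and both carry the same run of 2 overlapping ISRE matches close to the start. RefSeq windows of 250 bases before to 50 after the start were at hand for 31 of the 42 members. The ISRE letters, on either strand, were in 18 of these 31 (58.06%), against 1079 of 27025 genes (3.993%). The GAS letters TTCNNNGAA, which read the same on both strands, were in 10 of the 31 (32.26%), against 2582 of all genes (9.554%). Of the members higher in PSC HT, 3 were in the table and 2 carried the ISRE letters, and of 27 tested members that did not pass, 15 did. A match of letters describes the window and is no evidence of a bound site.

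Oas1a was at levels of 2.05, 1.91 and 2.07 on the PSC HT arrays, against 0.71, 0.80 and 0.79 on the PSC WT arrays. The genotypes were far apart relative to their spread, with a difference of 1.25 ± 0.08, which is 2.38-fold (adjusted p = 0.00088). Its probe lies at chr5:121346735-121346794 (mm9).

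Oas1g was at -3.63, -3.60 and -3.81 in PSC HT, against -5.37, -4.98 and -5.39 in PSC WT, where only 1 of 3 arrays was well above background. The groups did not overlap (adjusted p = 0.0019). The PSC WT readings lay above the detection floors of their arrays, so the floors did not change the fitted 2.96-fold rise in PSC HT. The fitted difference was 1.57, and it was 0.63 with normexp background correction (adjusted p = 0.0071) and 0.60 with the deposited table, so its size depends on that setting. Whether the probes of the Oas1 copies also bind transcripts of their neighbours was not tested.

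Oas2 was at -1.33, -1.81 and -1.56 in PSC HT, against -3.03, -2.79 and -2.65 in PSC WT. Every PSC HT array was above every PSC WT array, and the difference was 1.26 ± 0.15 (adjusted p = 0.0073). A second, dimmer Oas2 probe was not well above background in either genotype.

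Oasl1 encodes an OAS-like protein that, in the mouse, binds RNA and restrains translation of Irf7. It was at -0.76, -0.81 and -0.60 in PSC HT, against -1.92, -1.32 and -1.51 in PSC WT, without overlap. The difference was 0.86 ± 0.16 (adjusted p = 0.0275), and a second probe gave 0.92.

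Parp14, an ADP-ribosyltransferase whose gene lies near Parp9 and Dtx3l on chromosome 16, was at -0.21, -0.07 and -0.03 in PSC HT, against -1.04, -0.51 and -0.76 in PSC WT. Its groups did not overlap either, at a difference of 0.67 ± 0.14 (adjusted p = 0.0421), and a second probe gave 0.65. Parp9 and Dtx3l, which form an ADP-ribosylating complex with ligase activity, differed by 0.31 ± 0.11 and 0.27 ± 0.07. Neither passed, though their groups did not overlap, and a second Parp9 probe gave -0.09.

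Oas1a, Oas1g and Oas2 kept their call when any 1 of the 6 PSC arrays was left out, with the slide as a block and without array 3 of PSC HT. Oasl1 lost it in 4 and Parp14 in 5 of these 6 fits, and both lost it without array 3 of PSC HT, at 0.79 (adjusted p = 0.0864) and 0.63 (adjusted p = 0.124). Slide 1 held arrays 1 and 3 of PSC HT, with array 1 as its only PSC WT array. Slide 2 held array 2 of PSC HT with arrays 2 and 3 of PSC WT. Within slide 1 the difference was 1.36 for Oas1a, 1.65 for Oas1g, 1.59 for Oas2, 1.23 for Oasl1 and 0.92 for Parp14. Within slide 2 it was 1.12 for Oas1a, 1.58 for Oas1g, 0.91 for Oas2, 0.60 for Oasl1 and 0.56 for Parp14. Neither slide alone, with 3 PSC arrays, gave a call.

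The spike-in slope of arrays 1 and 3 of PSC HT differed from that of the PSC WT arrays. Array 2 of PSC HT, whose slope was like theirs, set alone against the 3 PSC WT arrays gave 1.15 for Oas1a (adjusted p = 0.0313) and 1.65 for Oas1g (adjusted p = 0.0457). It gave 1.01 for Oas2 (adjusted p = 0.102), 0.77 for Oasl1 and 0.70 for Parp14, all above 0 but not past the threshold. The fit takes the spread of the lone array from PSC WT, and this comparison was chosen after the slopes had been seen.

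**Figure D2:**
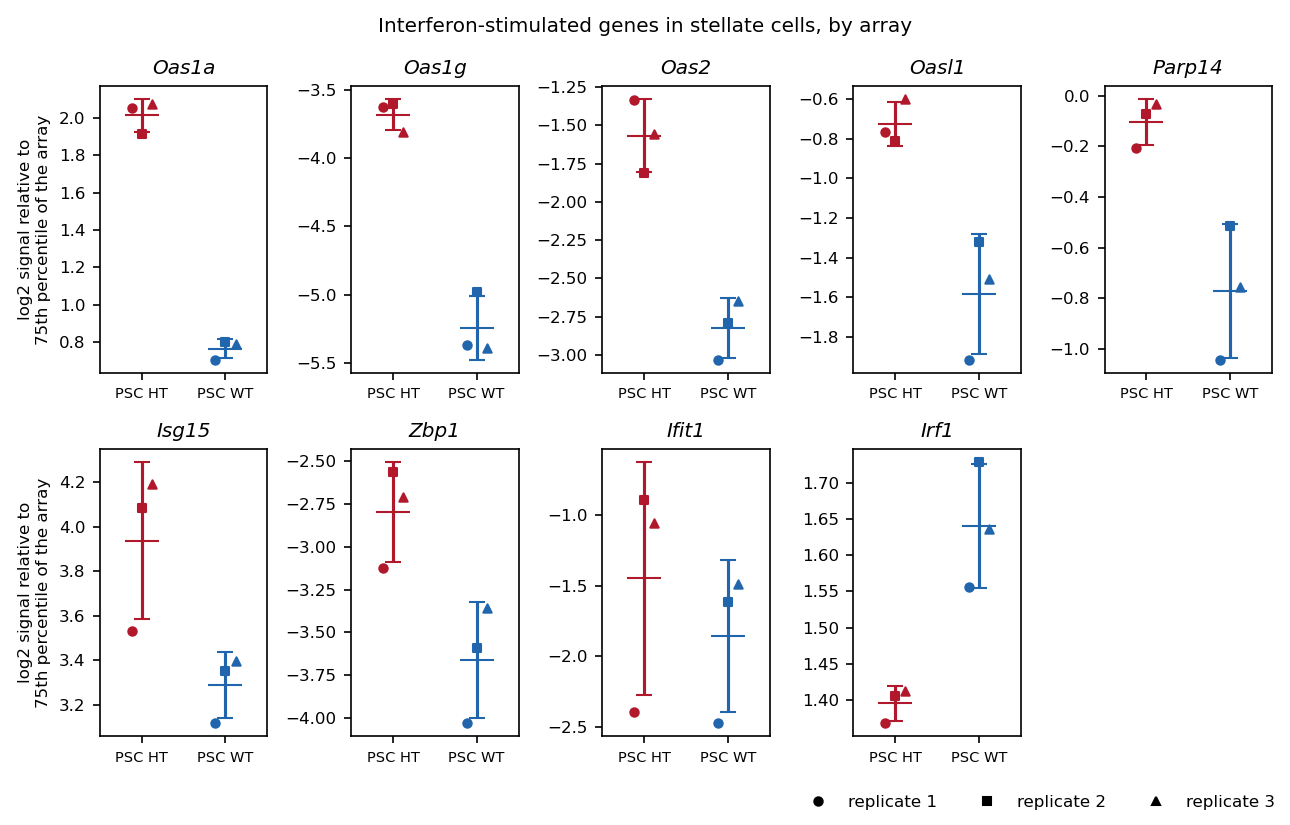
Level (log2 signal relative to the 75th percentile of the array) of 9 interferon-stimulated genes on the 3 PSC HT and 3 PSC WT arrays; symbols are replicates, the horizontal mark is the mean and the bar is the SD, and each panel has its own scale. Genotypes are separated for the OAS genes and Parp14, Irf1 lies lower in PSC HT, and Ifit1 is lowest on array 1 of both genotypes.

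The other members of the OAS family did not pass. Oasl2 was higher by 0.61 ± 0.25 (adjusted p = 0.231). Oas1b, which is truncated in many laboratory mouse strains, was at 3.82, 3.74 and 3.82 in PSC HT, against 3.84, 3.73 and 3.72 in PSC WT. Oas1b therefore lay within its replicate spread, at 0.03 ± 0.07, while its neighbour Oas1a did not.

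The 3 members around ISG15, a ubiquitin-like protein attached to other proteins after interferon, did not pass. Isg15 was at 3.53, 4.09 and 4.19 in PSC HT, against 3.12, 3.35 and 3.40 in PSC WT, without overlap, at 0.65 ± 0.19 (adjusted p = 0.098). Usp18, the protease that removes ISG15 and damps the receptor, differed by 0.69 ± 0.26 (adjusted p = 0.188). Trim25, a ligase for ubiquitin and ISG15, differed by 0.10 ± 0.10.

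Of the RNA and DNA sensors 0 of 5 passed and 3 were higher in PSC HT without overlap. Zbp1, a sensor of Z-form nucleic acids, was at -3.13, -2.56 and -2.71 in PSC HT, against -4.03, -3.59 and -3.36 in PSC WT. Its lowest PSC HT array lay just above its highest PSC WT array, and the difference was 0.86 ± 0.21 (adjusted p = 0.0663). It passed under 8 of 15 other settings, leaving out 1 array not counted among them. Dhx58, known as LGP2, differed by 0.41 ± 0.12 and Ifih1, known as MDA5, by 0.38 ± 0.13, neither past the threshold. Ddx58, known as RIG-I, differed by -0.07 ± 0.08 by its brightest probe and overlapped. Its dimmer probes, well above background on all PSC arrays, gave -0.28, -0.31 and -0.30.

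The 4 transcription factors did not pass. Irf7, the inducer of type I interferons, differed by 0.31 ± 0.18, Irf9 by 0.18 ± 0.10 and Stat2 by 0.18 ± 0.13. Irf1, which mediates much of the type II response, was lower on every PSC HT array, at 1.37, 1.41 and 1.41, against 1.56, 1.73 and 1.64 in PSC WT. That difference, -0.24 ± 0.07, had an adjusted p of 0.114.

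Members known for a strong type I response did not follow the OAS genes past the threshold. Ifit1, which binds foreign RNA caps, was at -2.39, -0.89 and -1.06 in PSC HT, against -2.47, -1.61 and -1.49 in PSC WT. Ifit3 was at -1.08, 0.43 and 0.29 in PSC HT, against -0.73, 0.46 and 0.36 in PSC WT. Both overlapped between genotypes, at 0.41 ± 0.45 for Ifit1 and -0.15 ± 0.49 for Ifit3. Ifit2 and Ifi44 differed by 0.03 ± 0.12 and -0.03 ± 0.29.

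Of the 7 GTPases tested, which coat or disrupt the vacuoles of pathogens or block viruses, 0 passed. Their differences ran from -0.14 for Irgm1 to 0.49 for Igtp, with Gbp2 at -0.0036 ± 0.10. The 8 antiviral effectors and other members were all positive, and 0 passed. Cmpk2 differed by 0.72 ± 0.55, which rested on array 1 of PSC WT, at -6.27 and not above background, against -4.19 and -4.51 on the others. Without that array it was 0.08. Rtp4 differed by 0.64 ± 0.22 (adjusted p = 0.155). Bst2, also called tetherin because it holds budding viruses at the cell surface, had the smallest adjusted p among them. It was at 2.41, 2.61 and 2.59 in PSC HT, against 2.04, 2.22 and 2.22 in PSC WT, without overlap, at 0.38 ± 0.09 (adjusted p = 0.0648).

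**Figure D3:**
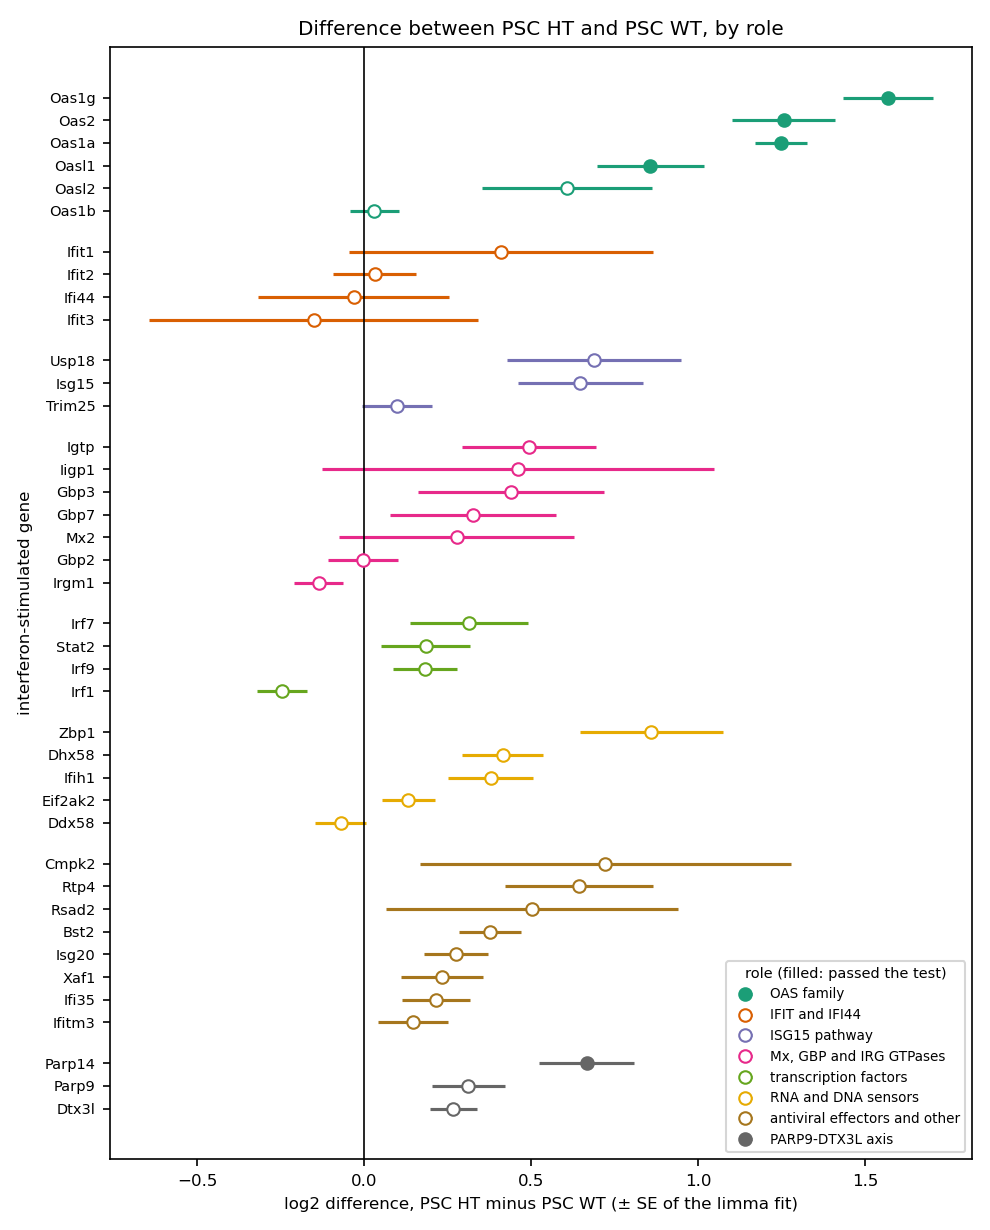
Difference in level (log2, PSC HT minus PSC WT) of the 40 members tested, grouped and coloured by role; bars are the SE of the limma fit with 3 arrays per group and filled points passed the test. The 5 filled points are Oas1g, Oas2, Oas1a, Oasl1 and Parp14, and the bars of Ifit1 and Ifit3 are wide and cross 0.

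The wide errors of Ifit1, Ifit3 and some GTPases came with a pattern between arrays of 1 genotype. Array 1 was the lowest of the 3 in both genotypes for 25 of the 40 members (62.5%), against 14.23% of the 20875 genes with a value on all 6 PSC arrays. Iigp1, an immunity-related GTPase, was at -2.45, -0.78 and -0.89 in PSC HT, against -2.82, -1.25 and -1.42 in PSC WT. The gap within each genotype was larger than the gap between genotypes for this gene. Oas1a and Oas1g did not show it in PSC HT, where array 1 lay between the others.

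Macrophage markers showed the reverse order. Of 16 tested 13 were higher in PSC HT, where 2.95% of all genes tested were higher. For 1 of the 16 only 1 genotype was read in full. Array 1 was the highest of the 3 in both genotypes for all 16 macrophage markers, against 14.18% of the 20875 genes. Their median level was 1.64, -0.04 and 0.06 on the PSC HT arrays, against -1.47, -2.65 and -2.42 on the PSC WT arrays. The median level of the 42 members was -0.25, 0.28 and 0.28 in PSC HT, against -0.83, -0.14 and -0.22 in PSC WT. Array 1 of each genotype thus had the most macrophage transcripts and the lowest median of the members. In addition, 4 of 5 endothelial and 5 of 7 mesothelial markers tested were lower in PSC HT, where 4.77% of all genes tested were lower. For 1 of the 5 endothelial markers only 1 genotype was read in full, and 3 of the 4 read on every PSC array were lower. The part of these other cell types in the differences between genotypes was not tested, and in bulk RNA fewer cells of a type and less RNA per cell cannot be told apart.

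**Figure D4:**
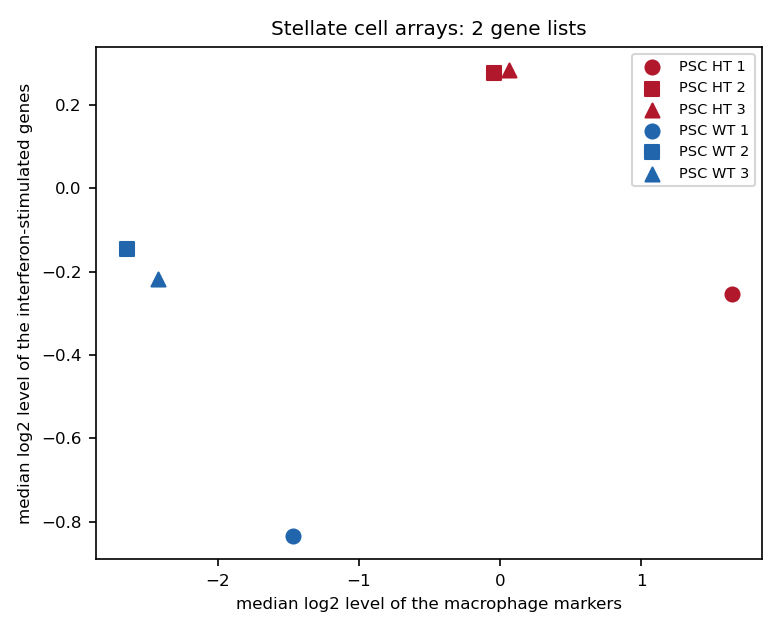
Median log2 level of the 42 interferon-stimulated genes (vertical axis) against the median log2 level of 18 macrophage markers (horizontal axis) on the 6 PSC arrays. PSC HT arrays lie to the right of PSC WT arrays, and within each genotype array 1 has the highest macrophage median and the lowest median of the members.

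The pathway upstream of the members was read from further lists. Of 13 interferon genes 6 were tested and 0 passed, and Ifnb1 was well above background on 1 of 3 PSC HT arrays and 0 of 3 PSC WT arrays. Of 11 receptors, JAK kinases and STATs 1 rose and 1 fell. Jak2, the kinase of the type II receptor, was higher by 0.44 ± 0.09 (adjusted p = 0.0346). Ifnlr1, the receptor chain for interferon lambda, was lower, at -0.75 ± 0.15 (adjusted p = 0.0303). Ifnar1, Ifnar2, Ifngr1 and Ifngr2 differed by -0.05, 0.14, 0.25 and -0.13 and did not pass.

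Of 14 genes of sensing and induction only Tlr7, an endosomal RNA receptor of myeloid cells, rose, by 0.58 ± 0.10 (adjusted p = 0.021). Of 9 negative regulators only Ptpn6, the blood-cell phosphatase SHP-1, rose, by 2.69 ± 0.52 (adjusted p = 0.0309), and Socs1 differed by 0.19 ± 0.09. Ptpn6 was highest on array 1 in both genotypes, as the macrophage markers were.

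Among 33 tested interferon-stimulated genes outside the 42 members, 5 rose and 1 fell. Oas1f, another copy of the Oas1 cluster, was at 1.02, 1.01 and 1.09 in PSC HT, against -0.32, -0.12 and -0.19 in PSC WT, a difference of 1.25 ± 0.08 (adjusted p = 0.00088). Phf11d was higher by 0.97 ± 0.08 and Psmb9, an immunoproteasome subunit, by 0.97 ± 0.16. Nlrc5, the activator of class I antigen presentation genes, was higher by 0.91 ± 0.14, from 2 PSC HT arrays because the spot on array 3 was marked as an outlier. Ifitm1 was lower, at -1.96 ± 0.36 (adjusted p = 0.0254), while its relative Ifitm3, a membrane protein that blocks viral entry, differed by 0.15 ± 0.10. Cxcl10, a chemokine of both interferon responses, differed by -0.17 ± 0.41.

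The second question was what PSC medium did to cancer cells. Few members changed, and the shares were near those of all genes. Of 25 members tested 1 was higher in HT PSC medium than in control medium (2.97% of all 19707 genes were higher) and 1 was lower (2.5% of all genes). In WT PSC medium 2 were higher (2.8% of all genes) and 1 was lower (3.15% of all genes). Both comparisons use the same 3 control arrays, so their values are given side by side and are not independent.

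Oasl1 fell in both media. It was at 1.55, 1.45 and 1.52 in HT PSC medium, at 1.49, 1.42 and 1.48 in WT PSC medium and at 2.20, 2.07 and 2.18 in control medium. All 6 arrays in PSC medium lay below all 3 control arrays. The difference from control was -0.64 ± 0.06 in HT PSC medium (adjusted p = 0.00127) and -0.69 ± 0.06 in WT PSC medium (adjusted p = 0.00065). A second probe gave -0.77 and -0.84 in the same order of media. The call held with any 1 of the 9 arrays left out and with the slide as a block. Within slide 1 the difference was -0.65 in HT PSC medium and -0.70 in WT PSC medium, and within slide 2 it was -0.62 in both, with no call from either slide alone.

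Bst2 rose in both media. It was at 2.54, 2.39 and 2.31 in HT PSC medium, at 2.35, 2.27 and 2.49 in WT PSC medium and at 2.07, 2.02 and 1.89 in control medium. The arrays in PSC medium were all above the controls. The difference from control was 0.42 ± 0.09 in HT PSC medium (adjusted p = 0.0336) and 0.37 ± 0.09 in WT PSC medium (adjusted p = 0.0467). The call was lost in 7 of 9 fits that left out 1 array for HT PSC medium and in 9 of 9 for WT PSC medium. With the slide as a block the call was lost in WT PSC medium (adjusted p = 0.0716) and held in HT PSC medium (adjusted p = 0.0404). With the replicate number as a block it was lost in both, at adjusted p = 0.0613 in HT PSC medium and 0.0774 in WT PSC medium. Within slides 1 and 2 the difference was 0.44 and 0.36 in HT PSC medium and 0.37 and 0.36 in WT PSC medium.

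Isg15 was at -0.85, -0.90 and -0.79 in HT PSC medium, at -0.81, -0.83 and -0.76 in WT PSC medium and at -1.04, -1.10 and -1.25 in control medium. Both media lay above the controls on every array. The difference passed in WT PSC medium, at 0.33 ± 0.07 (adjusted p = 0.0305), and not in HT PSC medium, at 0.28 ± 0.07 (adjusted p = 0.058). The call in WT PSC medium was lost in 6 of 9 fits that left out 1 array and with the replicate number as a block (adjusted p = 0.07), and within slides 1 and 2 the value was 0.33 and 0.31.

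**Figure D5:**
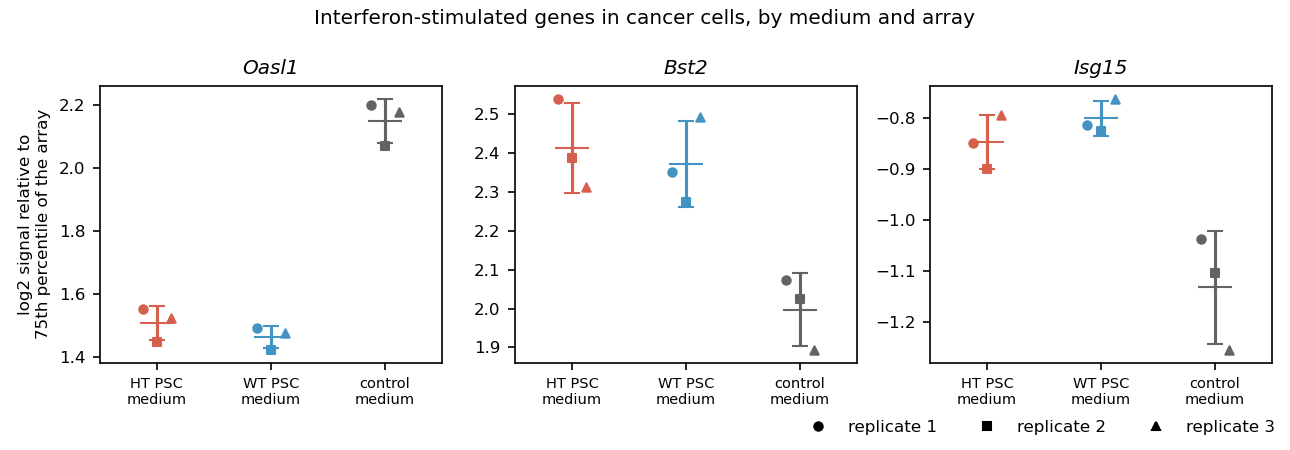
Level (log2 signal relative to the 75th percentile of the array) of Oasl1, Bst2 and Isg15 in cancer cells in HT PSC medium, WT PSC medium and control medium, 3 arrays each; symbols are replicates, the horizontal mark is the mean and the bar is the SD, with a scale of its own in each panel. Oasl1 is lower and Bst2 and Isg15 are higher on all 6 arrays in PSC medium than on the 3 control arrays.

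Other members did not pass in either medium, among them Dhx58, Gbp2, Rtp4, Parp14 and Ddx58. Dhx58 in HT PSC medium rested on array 1, at -3.14 against -4.80 and -5.30 on arrays 2 and 3, with control arrays at -4.93, -4.83 and -5.01. Its difference was 0.51 ± 0.46, and -0.13 without array 1 of HT PSC medium. Gbp2, a guanylate-binding protein, differed by -0.38 ± 0.18 in HT PSC medium and -0.47 ± 0.18 in WT PSC medium. Rtp4 differed by 0.35 ± 0.16 in HT PSC medium and 0.36 ± 0.16 in WT PSC medium. Parp14 differed by 0.26 ± 0.09 in HT PSC medium (adjusted p = 0.162) and -0.03 ± 0.09 in WT PSC medium. Ddx58 differed by -0.16 ± 0.07 in HT PSC medium and -0.26 ± 0.07 in WT PSC medium (adjusted p = 0.0638). The median difference of the members was -0.0084 in HT PSC medium and -0.04 in WT PSC medium, against 0.01 and 0.03 over all genes in the same order.

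HT PSC medium and WT PSC medium were not told apart by any member. In limma 0 of 25 were higher or lower at the adjusted threshold, as were 0% of all genes. The largest differences were 0.59 ± 0.46 for Dhx58 and 0.29 ± 0.09 for Parp14, and the median was 0.04. That of Dhx58 was -0.0442 without array 1 of HT PSC medium. Parp14 was at -3.09, -3.34 and -3.05 in HT PSC medium, against -3.46, -3.48 and -3.41 in WT PSC medium. Its groups did not overlap, with an adjusted p of 0.939.

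The pathway lists moved little in cancer cells. Of 13 genes of sensing and induction tested, Tmem173, the adaptor STING, rose by 0.56 ± 0.12 in HT PSC medium (adjusted p = 0.0321), and Ticam1, the adaptor of TLR3, fell by 0.32 in WT PSC medium (adjusted p = 0.0165). Trex1, a DNase that removes cytosolic DNA, fell by 0.30 in HT PSC medium (adjusted p = 0.0369). Of 26 interferon-stimulated genes outside the members, 0 passed in HT PSC medium, and Samd9l and Irgm2 fell by 0.57 and 0.30 in WT PSC medium. Of 11 receptors, kinases and STATs 0 passed in either medium. Ifnb1 was not well above background on any cancer cell array.

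Set against cancer cells in control medium, PSC WT carried more of many members. Of 25 members well above background on all 6 arrays, 17 were higher in PSC WT (32.1% of the 18005 such genes were higher) and 6 were lower (37.9% of such genes). Their median difference was 1.38, against -0.05 over those genes. A further 13 members were read on all PSC WT arrays but not on all control arrays, so they entered the test only through the cells where they are high and had to differ. With them, 30 of 38 were higher (36.1% of all 21948 genes tested) and 6 lower (35.3%), at a median of 2.59 against 0.04, and nothing is read from that count. All PSC WT arrays had the low spike-in slope and all cancer cell arrays the high one, so slope and cell type cannot be told apart here.

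The OAS family split. Oas1a was at 0.71, 0.80 and 0.79 in PSC WT and was not well above background on any of the 3 control arrays, a difference of at least 79.8-fold. For Oasl2 the rise over the control arrays was at least 33.2-fold, since it was not read above background there either. The brightest Oas2 probe was at least 6.63-fold higher. The second Oas2 probe went the other way, at -1.72, read above background on 1 of 3 control arrays and 0 of 3 PSC WT arrays. Oasl1 was lower in PSC WT, at -1.92, -1.32 and -1.51, against 2.20, 2.07 and 2.18 in cancer cells, a difference of -3.73 ± 0.16 (adjusted p = 1.76e-06). Its second probe gave -3.92. Oas1b was lower by its brightest probe, at -0.54 ± 0.10, but a second probe, well above background on all arrays, gave 0.62, so no direction is given for Oas1b, though it is among the 6 counted as lower.

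Several genes of the type I response were read in PSC and not in control cancer cells. Ifit1 was at least 13.0-fold higher, Ifi44 at least 8.18-fold and Rsad2, the enzyme viperin, at least 3.52-fold. Among the GTPases Gbp3 was at least 13.6-fold and Gbp7 at least 2.85-fold higher. The brightest Iigp1 probe was at least 13.2-fold higher, while a second one, above background on 1 of 3 control arrays, gave a difference of 0.84. Gbp2 was at 0.89, 1.11 and 0.93 in PSC WT, against -3.90, -4.30 and -4.01 in cancer cells. These groups were far apart, at 5.04 ± 0.13 (adjusted p = 1.76e-07).

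Ifitm3 was at 5.59, 5.28 and 5.31 in PSC WT, against -6.42, -4.98 and -5.96 in cancer cells, where 1 of 3 arrays was well above background. Against the higher of reading and detection floor it was at least 1721-fold higher. Isg15 was at 3.12, 3.35 and 3.40 in PSC WT, against -1.04, -1.10 and -1.25 in cancer cells, a difference of 4.42 ± 0.11 (adjusted p = 1.56e-07). Every PSC WT array lay above every control array for both genes.

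The cytosolic sensors Ddx58 and Ifih1 were higher in PSC WT by 2.53 ± 0.08 and 1.51 ± 0.13, and Irf7 by 2.65 ± 0.11. The sensor kinase Eif2ak2, known as PKR, was lower, at -0.43 ± 0.09 (adjusted p = 0.0057). Trim25, Irf1 and Isg20, an exonuclease, were also lower in PSC WT, at -1.45 ± 0.14, -1.16 ± 0.09 and -1.06 ± 0.09. Stat2 and Bst2 did not pass, at 0.08 ± 0.12 and 0.16 ± 0.10, and both turn below 0 when arrays are centred on their median. That centring moves the median of all genes to -0.35 and that of the members to 2.20.

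Xaf1, a pro-apoptotic member, gave opposite readings by probe. The brightest probe was 31.7-fold higher in PSC WT and was read above background on 2 of 3 control arrays. A second probe for the same transcript was not well above background on any PSC array and was lower in PSC WT, at -4.73, so no direction is given for the gene, though its brightest probe is among the 13 read in full only in PSC WT.

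Usp18, Rtp4 and Parp14 were higher in PSC WT by 3.34 ± 0.15, 4.43 ± 0.21 and 2.64 ± 0.15. Ifit3, read above background on 2 of 3 control arrays, was at least 38.5-fold higher, and Mx2, read on 1 of 3, at least 5.25-fold. The other members that passed were higher by 0.57 (Irf9) to 2.16 (Igtp). Oas1g, Cmpk2, Oas3 and Mx1 were not tested, since neither group had a reading clear of background on each of its 3 arrays.

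Receptors and kinases split as well, with 6 of 11 higher and 4 lower. Ifnlr1 was lower, at -4.09 ± 0.08, and Ifngr1 was lower, at -1.58 ± 0.12, while Ifnar2 was higher by 0.95 ± 0.09. Of 11 genes of sensing and induction read on all arrays 5 were higher, with Tmem173 higher by 3.50 ± 0.08, and 2 were lower. Of 9 negative regulators 6 were lower, among them Socs3 at -1.67 ± 0.10, and 2 were higher. Of 26 other interferon-stimulated genes read on all arrays 19 were higher and 3 lower. Tap1, the peptide transporter of antigen presentation, and Sp100 were not read above background in the control cells and were at least 64.9-fold and 58.4-fold higher.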

How the data were processed

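Per the file headers, the deposited scanner files hold 1-channel Cy3 intensity, read with Agilent Feature Extraction 10.7.3.1 and corrected for background. The authors also deposited a table of log2 values whose making is not given in the sources used here. Per the labels' protocols RNA was labelled through double-stranded cDNA, and strand was not examined. Log2 of the processed intensity minus each array's 75th percentile was used, outlier spots and control spots were left out, and the brightest probe stood for a gene name. A gene entered a test where every array of 1 or more of the compared groups read it well above background.

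R 4.3.3 with limma 3.58.1 gave the differences. The 6 PSC arrays, the 9 cancer cell arrays, and PSC WT with the controls were fitted separately, with Benjamini-Hochberg adjustment over all genes. "At least N-fold" is against the higher of the detection floor and the reading. Members passing the threshold, those nearest to it and set pathway genes are named. Results of 1 pathway gene are not reported here. Same-numbered WT PSC medium and control arrays deviated together (correlations of 0.22, 0.31 and 0.26). Differently numbered ones were as high in some pairs (0.23, 0.22 and 0.26) and below 0 in others (-0.47, -0.52 and -0.52). The numbers therefore do not establish a pairing. As a check, the fit with the replicate number as a block is given beside calls against control that it ends. The members and lists were chosen with earlier results of these data known. On simulated data for PSC HT versus PSC WT, 20906 genes, log2 changes of 0.5, 1 and 2 were called in 26.87%, 71.64% and 93.94% of changed genes. Files were read with pandas 2.3.3 in Python 3.11.15, and matplotlib 3.10.9 drew the figures. Precision is limited by 3 arrays per group.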

Additional observations from a re-analysis of the deposited data

How the results depend on the processing

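In PSC HT versus PSC WT the count of members higher was 5, and 3 without a filter on dim probes, 3 at a difference of at least 1, 11 with all 15 arrays in 1 fit, 2 with array 2 of PSC HT alone against PSC WT, and 0 within slide 1 or slide 2. It was 3 to 6 with 1 array left out, and 3 each without array 3 of PSC WT, array 2 of PSC HT or array 3 of PSC HT. The count lower was 1 with all 15 arrays and with a robust trended variance. Same-numbered arrays deviated with correlations of 0.23, 0.06 and -0.10 in PSC HT and PSC WT and -0.16, 0.44 and 0.13 in HT PSC medium and control, not above 0.1 in every pair, as they were for WT PSC medium and control. With the replicate number as a block 8 members were higher in PSC HT, and 0 were higher in HT PSC medium or WT PSC medium against control. The share of all genes called under these other settings was not computed, here or for the media below. Nothing about the members is therefore read from these counts.

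For HT PSC medium the count higher, 1, was 2 with quantile normalization and with the deposited table. It was 0 with median scaling, without a filter, within either slide and at a difference of at least 1, and 0 to 1 with 1 array left out. For WT PSC medium the count higher, 2, was 1 when every probe was tested, with the slide as a block and with all 15 arrays in 1 fit. It was 0 with median scaling, without a filter, with the mean over probes, within either slide and at a difference of at least 1, and 0 to 1 with 1 array left out. The count lower was 0 within either slide and at a difference of at least 1 in both media, and 2 for WT PSC medium with all 15 arrays. The median difference in HT PSC medium was 0.10 within slide 1 and -0.14 within slide 2. In WT PSC medium it was 0.0090 with median scaling and -0.0498 to 0.0104 with 1 array left out.

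Reversed members were Rtp4 in HT PSC medium within slide 2 (-0.19), Ifih1 between media within slide 2 (-0.0243) and Dhx58 without array 1 of HT PSC medium. With 1 array left out, Dhx58 ranged from -0.13 to 0.95 in HT PSC medium against control and from -0.0442 to 1.03 against WT PSC medium. With the mean over probes, Ddx58 (0.15), Stat2 (-0.0275) and Ifih1 (0.23) reversed in WT PSC medium. In PSC WT versus cancer cells, Bst2 (-0.22) and Stat2 (-0.31) reversed with median scaling and Stat2 within slide 1 (-0.0472). There the median of the members was 1.44 with normexp, 2.20 with median scaling, 1.38 with 17 higher when only genes well above background on every array were tested, 1.71 with the mean over probes and 2.31 within slide 1. The causes were not tested, beyond fewer arrays or genes in those fits.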
